A study of Mus musculus with 12 samples.

Results

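A set of 10 genes of the Notch pathway were followed through 4 culture conditions of a mouse collecting duct cell line. They were taken by symbol from the deposited expression table: the receptor genes Notch1, Notch2 and Notch3, the ligand genes Jag1, Jag2 and Dll1, the glycosyltransferase gene Lfng, the DNA-binding factor gene Rbpj, and the target genes Hes1 and Hey1. All 10 symbols were found once each among 48034 genes, and all 10 were among the 14044 genes that entered the test, having 3 or more of the 12 libraries at an FPKM of 1 or above (FPKM is the read number scaled by gene length and sequencing depth).

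The cells were IMCD3, a line from the mouse inner medullary collecting duct, in the single subclone 53a, grown in low glucose DMEM with 10% FBS. In this subclone mifepristone induces a dominant-negative form of a kidney epithelial transcription factor, as known of the study. The 4 groups, with 3 poly(A) RNA libraries each (A, B and C), were mifepristone with 100 mM added NaCl, mifepristone alone, vehicle with 100 mM added NaCl, and vehicle alone. All 12 libraries come from the same subclone, so an action of mifepristone itself cannot be told apart from that of the induced protein. The time of exposure is not given in the labels, and they do not name separate cultures behind the replicates, so the spread that enters each p-value may be technical only.

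The reads recovered from the deposited values summed to between 41940955 and 49270776 per library. The general tubule markers Cdh1, Epcam, Krt8, Krt18, Pax2 and Pax8 summed to between 527 and 950.7 FPKM in each library. Some defining markers of mature collecting duct cells were near 0, with 0 to 6 reads per library for Aqp2, the water channel of principal cells, and 0 to 1 for Foxi1, the master factor of intercalated cells. The principal cell list had 2 of 9 markers above the filter (Scnn1a and Hsd11b2). Its summed level was 10.7 to 12 FPKM in mifepristone cells with NaCl and 9.99 to 11 with mifepristone alone. In vehicle cells it was 1.06 to 1.19 FPKM with NaCl and 2.26 to 2.48 with vehicle alone. In mifepristone cells this sum was mostly Hsd11b2, at a mean of 9.54 FPKM with NaCl and 7.90 without. Below the filter, Aqp3 was higher with mifepristone (0.664 against 0.124 FPKM with NaCl, 0.294 against 0.0892 without). Scnn1g was lower with mifepristone (0.0201 against 0.123 FPKM with NaCl, 0.0893 against 0.123 without). The intercalated cell list had 2 of 8 (Slc26a4 and Car2), at 10.6 to 11.8, 3.53 to 3.79, 14.1 to 15.5 and 9.44 to 10.4 FPKM in the same 4 groups. That sum is mostly Car2, which fell with mifepristone, while Slc26a4 rose, at a mean of 1.36 FPKM in mifepristone cells with NaCl, 0.467 with mifepristone alone, 0.0263 in vehicle cells with NaCl and 0.0529 with vehicle alone. The part of these markers in the results on Notch genes was not tested. Endothelial (Pecam1, Cdh5, Kdr, Tek), fibroblast (Col1a1, Pdgfra, Pdgfrb, Acta2) and immune markers (Ptprc, Adgre1, Cd3e) summed to at most 0.59, 0.292 and 0.332 FPKM in any library. Library mifepristone C and library vehicle A had the most negative trends with gene length. Across 14044 genes, Spearman's rho between a library's deviation from its group mean and gene length was -0.516 and -0.45, against -0.289 to 0.464 in the other 10 libraries. Trends in the other direction reached 0.464 in mifepristone A and 0.428 in mifepristone B, as deviations within a group sum to 0. Fewer cells of a type and less RNA per cell cannot be told apart in these bulk libraries.

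As background, Notch proteins are receptors that are activated by ligands on a neighbouring cell. Jagged and Delta-like ligands pull on the receptor, proteases release its intracellular part, and this part joins RBPJ in the nucleus to switch on genes such as those of the HES and HEY repressors. Fringe enzymes such as LFNG add sugars to the receptor and change which ligands it answers to. In the collecting duct, Notch signalling is known for setting the balance between principal and intercalated cells.

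The stretch before the start of Lfng is shown because Lfng was the member with the largest change under NaCl, and that of Jag1 because it was the member with the largest fall under mifepristone. Capitals mark the core motif GTGGGAA bound by RBPJ. The 5′ to 3′ sequences are from RefSeq on GRCm38.p6 and end 1 base before the gene's first base in GENCODE release M21. The Lfng stretch lies on the plus strand at chr5:140607091-140607319 and the Jag1 stretch on the minus strand at chr2:137116645-137116770.
Lfng: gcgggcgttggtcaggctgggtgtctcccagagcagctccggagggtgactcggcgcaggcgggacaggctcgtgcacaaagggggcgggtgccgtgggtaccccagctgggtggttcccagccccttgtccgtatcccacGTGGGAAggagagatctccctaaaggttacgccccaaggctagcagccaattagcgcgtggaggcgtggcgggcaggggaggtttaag
Jag1: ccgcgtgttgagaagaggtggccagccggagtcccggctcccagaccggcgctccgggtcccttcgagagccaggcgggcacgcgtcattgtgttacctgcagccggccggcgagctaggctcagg
The Lfng motif starts at position -109 relative to the RefSeq transcription start. The 250 bases before the start were searched on both strands for GTGGGAA (reverse complement TTCCCAC) and for the N-box CACNAG (reverse complement CTNGTG), the type of site bound by HES repressors, and the 2 motifs do not overlap in Lfng. Of the 10 members, 8 matched an entry, Hes1 and Hey1 being without one. GTGGGAA was found in 1 of these 8 genes (Lfng), and in 6.18% of 27025 genes. CACNAG was found in 4 of the 8 (Lfng, Notch1, Notch2 and Notch3), and in 40.1% of all genes. A match describes letters in this window and shows no binding.

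Mifepristone moved the members in both directions. Without NaCl, 5 of the 10 rose (Notch2, Dll1, Rbpj, Hes1 and Hey1), 4 fell (Notch1, Jag1, Jag2 and Lfng) and Notch3 did not pass the test. With NaCl, 5 rose (Jag2, Dll1, Rbpj, Hes1 and Hey1), 3 fell (Notch1, Jag1 and Lfng), and Notch2 and Notch3 did not pass. Here and below a gene rose or fell where limma gave a Benjamini-Hochberg adjusted p under 0.05 over all 14044 genes, on the log2(FPKM + 0.5) scale, which understates the change of low genes. The background was high: the same test called 59.7% of all genes without NaCl (28.3% higher and 31.5% lower) and 58.7% with NaCl (26.8% higher and 31.9% lower). The median log2 fold change of the members was 0.33 without and 0.23 with NaCl, against -0.01 and -0.03 over all tested genes.

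**Figure D1:**
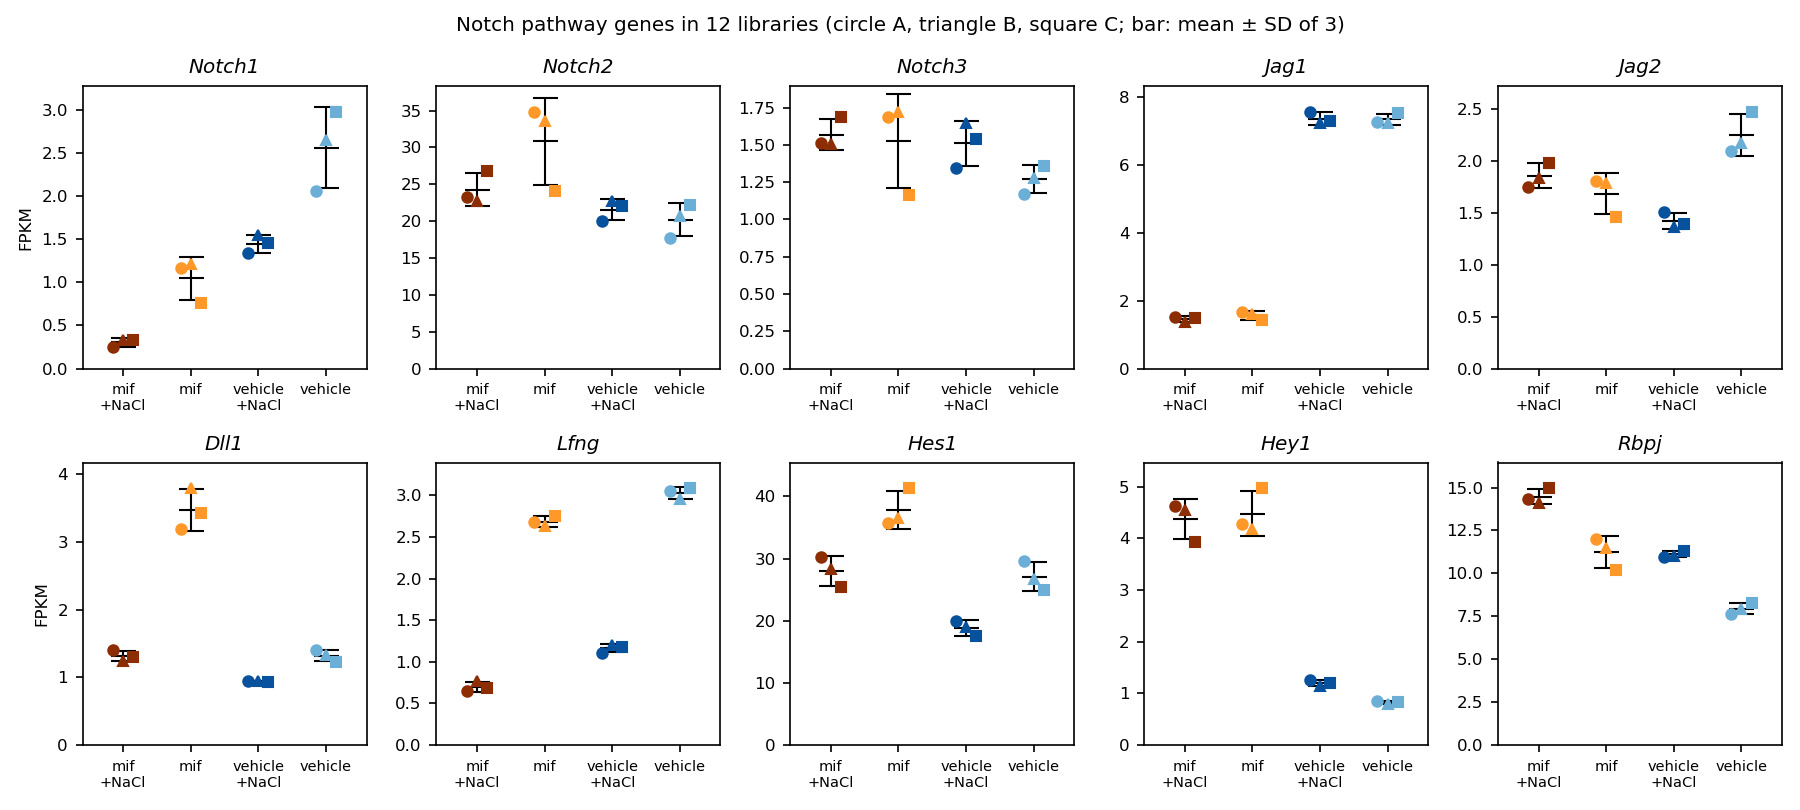
FPKM (y axis, linear, from 0) of the 10 genes in each library, by group (x axis, from left to right mifepristone with NaCl, mifepristone, vehicle with NaCl, vehicle). Points are libraries and bars the mean ± SD of 3. Jag1 lies between 1.36 and 1.66 FPKM in all 6 mifepristone libraries and between 7.21 and 7.56 in all 6 vehicle libraries, while Lfng separates by NaCl.

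All members that passed with NaCl had also passed with mifepristone in both backgrounds. In vehicle cells 2 of 10 members rose with NaCl (Rbpj and Hey1), 5 fell (Notch1, Jag2, Dll1, Lfng and Hes1) and Notch2, Notch3 and Jag1 did not pass, where 56.7% of all genes were called (25.2% higher, 31.5% lower). In mifepristone cells 1 rose (Rbpj), 4 fell (Notch1, Dll1, Lfng and Hes1) and 5 did not pass, where 58.7% of all genes were called (24.5% higher, 34.2% lower). The median log2 fold change was -0.17 in vehicle and -0.20 in mifepristone cells, against -0.02 and -0.06 over all tested genes. Each of the 4 groups enters one mifepristone comparison and one NaCl comparison, so the comparisons share libraries.

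**Figure D2:**
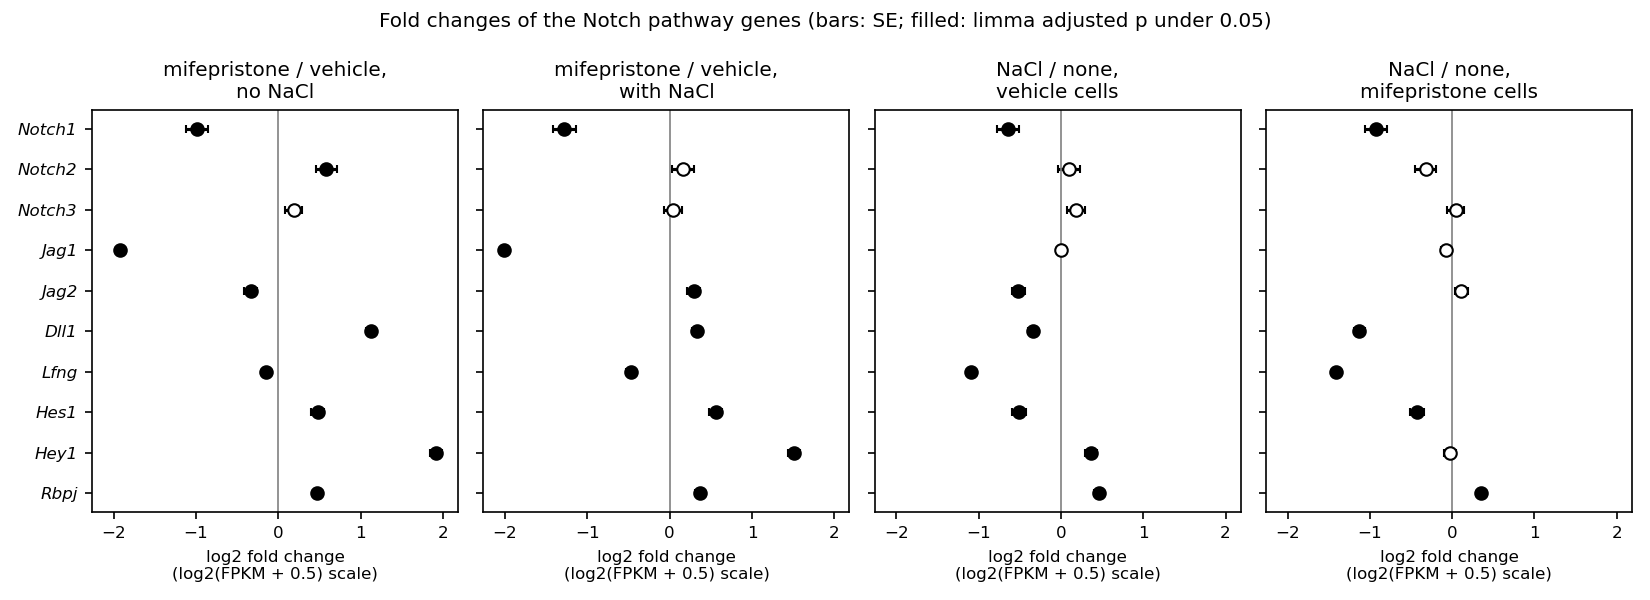
Log2 fold change (x axis, log2(FPKM + 0.5) scale) of each gene (y axis) in the 4 comparisons, with SE bars; filled points passed limma at an adjusted p under 0.05. Rbpj is to the right of 0 and Notch1 and Lfng to the left in all 4 panels, and Jag1 and Hey1 lie farthest from 0 in both mifepristone panels.

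Among the receptors, Notch2 was the most abundant, at 17.7 to 34.8 FPKM across the libraries, against 0.247 to 2.98 for Notch1 and 1.16 to 1.72 for Notch3. Notch1, a receptor of many epithelia, had 1.17, 1.22 and 0.756 FPKM in mifepristone cells (libraries A, B and C) and 2.06, 2.66 and 2.98 FPKM in vehicle cells. With NaCl it had 0.247, 0.333 and 0.334 FPKM in mifepristone cells and 1.34, 1.55 and 1.46 FPKM in vehicle cells. The 4 groups did not overlap, and vehicle was highest, followed by vehicle with NaCl, mifepristone, and mifepristone with NaCl. Notch1 fell 1.99-fold with mifepristone without NaCl (log2 fold change -0.99, SE 0.134, limma adjusted p = 7.2e-05) and 2.42-fold with NaCl (-1.28, SE 0.134, adjusted p = 9.06e-06). It fell 1.56-fold with NaCl in vehicle cells (-0.64, SE 0.134, adjusted p = 0.00183) and 1.91-fold in mifepristone cells (-0.93, SE 0.134, adjusted p = 0.000123). Since Notch1 is low, these values depend on the scale: voom on the recovered reads (161 to 2064 per library) gave a fall of 4.69-fold with mifepristone under NaCl and of 3.26-fold with NaCl in mifepristone cells.

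Notch2, the most abundant of these receptors, had 34.8, 33.5 and 24.1 FPKM in mifepristone cells and 17.7, 20.7 and 22.2 FPKM in vehicle cells. Under NaCl the values were 23.3, 22.7 and 26.8 FPKM in mifepristone cells and 20, 22.7 and 22.1 FPKM in vehicle cells. Mifepristone was above vehicle in every library of both pairs of groups, though with NaCl the lowest mifepristone and the highest vehicle library both round to 22.7. The rise was 1.5-fold without NaCl (log2 fold change 0.58, SE 0.131, limma adjusted p = 0.00267), and the value with NaCl, 0.16 (SE 0.131), did not pass (adjusted p = 0.305). With NaCl, Notch2 did not pass in vehicle cells (0.10, SE 0.131, adjusted p = 0.552) or in mifepristone cells (-0.32, SE 0.131, adjusted p = 0.0545). Without mifepristone C the value in mifepristone cells was -0.49 and passed (limma adjusted p = 0.00118).

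Notch3, known best from the smooth muscle of arteries, passed in none of the 4 comparisons. It had 1.69, 1.72 and 1.16 FPKM in mifepristone cells and 1.17, 1.28 and 1.36 FPKM in vehicle cells, groups that overlapped. With added NaCl there were 1.51, 1.51 and 1.69 FPKM in mifepristone cells and 1.35, 1.65 and 1.54 FPKM in vehicle cells. Its log2 fold changes were 0.18 with mifepristone without NaCl (SE 0.107, limma adjusted p = 0.161) and 0.04 with NaCl (adjusted p = 0.751), and with NaCl 0.18 in vehicle cells (adjusted p = 0.165) and 0.04 in mifepristone cells (adjusted p = 0.757). Without mifepristone C the first of these was 0.32 and passed (limma adjusted p = 0.004), as did the value with NaCl in vehicle cells (0.18, adjusted p = 0.0382). Mifepristone C is in neither vehicle group, so the latter value stayed the same and only the estimate of the spread changed. Without vehicle A both values were 0.14 and neither passed (limma adjusted p = 0.343 and 0.355). In library mifepristone C all 3 receptors, Rbpj, Jag1 and Jag2 had the lowest value of their group, and Lfng, Hes1 and Hey1 the highest. In vehicle A the 3 receptors, Rbpj and Jag2 had the lowest value of their group, and Dll1, Hes1 and Hey1 the highest. The gene length implied by reads and FPKM was 14.3 kb for Notch1, 12.8 for Rbpj, 10.8 for Notch2 and 8.07 for Notch3, against 2.05 for Hes1 and 2.52 for Lfng. The part of the length trend in these results was not tested beyond leaving out the libraries.

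The 3 ligands went different ways. Jag1, the Jagged ligand mutated in Alagille syndrome in humans, had 1.66, 1.61 and 1.43 FPKM in mifepristone cells and 7.26, 7.23 and 7.51 FPKM in vehicle cells. In the NaCl groups it had 1.502, 1.36 and 1.49 FPKM in mifepristone cells and 7.56, 7.21 and 7.29 FPKM in vehicle cells. The 6 mifepristone libraries were all far below the 6 vehicle libraries, and the NaCl groups overlapped those without. Jag1 fell 3.8-fold with mifepristone without NaCl (log2 fold change -1.92, SE 0.051, limma adjusted p = 1.55e-10) and 4.02-fold with NaCl (-2.01, SE 0.051, adjusted p = 8.62e-11). By voom on the recovered reads these falls were 4.66-fold and 4.94-fold. With NaCl the log2 fold change was 0.00 in vehicle cells (SE 0.051, adjusted p = 0.961) and -0.08 in mifepristone cells (adjusted p = 0.2). The second of these passed without mifepristone C (-0.13, limma adjusted p = 0.0277).

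Dll1, a Delta-like ligand, was highest in mifepristone cells, at 3.19, 3.80 and 3.43 FPKM, against 1.41, 1.32 and 1.23 FPKM in vehicle cells. With NaCl it had 1.40, 1.25 and 1.30 FPKM in mifepristone cells and 0.939, 0.949 and 0.933 FPKM in vehicle cells. No pair of groups compared overlapped, while all 3 libraries of mifepristone with NaCl lay within the range of vehicle alone. Dll1 rose 2.18-fold with mifepristone without NaCl (log2 fold change 1.12, SE 0.065, limma adjusted p = 6.31e-08) and 1.26-fold with NaCl (0.33, SE 0.065, adjusted p = 0.00104). It fell 1.26-fold with NaCl in vehicle cells (-0.34, SE 0.065, adjusted p = 0.0011) and 2.19-fold in mifepristone cells (-1.13, SE 0.065, adjusted p = 7.21e-08). By voom the rises were 2.65-fold and 1.43-fold, and the falls 1.37-fold and 2.55-fold.

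Jag2, the other Jagged ligand, changed direction with salt. It had 1.81, 1.78 and 1.45 FPKM in mifepristone cells and 2.09, 2.17 and 2.47 FPKM in vehicle cells. Under NaCl the values were 1.74, 1.84 and 1.98 FPKM in mifepristone cells and 1.502, 1.36 and 1.39 FPKM in vehicle cells. Every mifepristone library was thus below every vehicle library without NaCl, and above it with NaCl. The log2 fold change with mifepristone was -0.33 without NaCl (SE 0.078, limma adjusted p = 0.00346) and 0.30 with NaCl (SE 0.078, adjusted p = 0.00718). With NaCl, Jag2 fell in vehicle cells (-0.52, SE 0.078, adjusted p = 0.000212) and did not pass in mifepristone cells (0.11, adjusted p = 0.24).

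Lfng encodes lunatic fringe, which extends the fucose on Notch receptors and favours signalling by Delta-like ligands. It had 0.645, 0.769 and 0.686 FPKM in mifepristone cells with NaCl and 2.68, 2.63 and 2.75 FPKM in mifepristone cells without. In vehicle cells it had 1.11, 1.20 and 1.18 FPKM with NaCl and 3.06, 2.95 and 3.09 FPKM without. None of the 4 groups overlapped, and the order from the top was vehicle, mifepristone, vehicle with NaCl, and mifepristone with NaCl. Lfng fell 2.12-fold with NaCl in vehicle cells (log2 fold change -1.09, SE 0.052, limma adjusted p = 2.24e-08) and 2.66-fold in mifepristone cells (-1.41, SE 0.052, adjusted p = 1.92e-09). By voom on the recovered reads, 74 to 376 per library, these falls were 2.55-fold and 3.72-fold. With mifepristone it fell 1.39-fold under NaCl (-0.47, SE 0.052, adjusted p = 1.34e-05). The fall with mifepristone without NaCl was small (-0.15, SE 0.052, adjusted p = 0.029) and no longer passed without vehicle A (adjusted p = 0.0724), vehicle C (0.0809), mifepristone A (0.0658) or mifepristone B (0.0876), nor under 4 other settings (up to 0.126).

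Rbpj, the DNA-binding factor through which all Notch receptors act, rose in all 4 comparisons. It had 11.98, 11.5 and 10.2 FPKM in mifepristone cells and 7.61, 7.95 and 8.28 FPKM in vehicle cells. In the NaCl groups it had 14.4, 14.1 and 14.96 FPKM in mifepristone cells and 10.98, 11.03 and 11.3 FPKM in vehicle cells. Mifepristone with NaCl was above and vehicle below all other libraries, and the 2 groups with a single treatment overlapped. The log2 fold change with mifepristone was 0.47 without NaCl (SE 0.055, limma adjusted p = 2.17e-05) and 0.37 with NaCl (adjusted p = 0.00015). With NaCl it was 0.46 in vehicle cells (adjusted p = 3.55e-05) and 0.36 in mifepristone cells (adjusted p = 0.000206).

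Both target genes rose with mifepristone, and they differed in how NaCl moved them. Hes1, a repressor and the classical Notch target, had 35.8, 36.4 and 41.3 FPKM in mifepristone cells and 29.5, 26.7 and 24.9 FPKM in vehicle cells. With added NaCl there were 30.2, 28.3 and 25.5 FPKM in mifepristone cells and 19.98, 18.9 and 17.5 FPKM in vehicle cells. Each pair of groups compared stood apart, while mifepristone with NaCl overlapped vehicle alone. Hes1 rose 1.39-fold with mifepristone without NaCl (log2 fold change 0.48, SE 0.083, limma adjusted p = 0.000468) and 1.47-fold with NaCl (0.56, SE 0.083, adjusted p = 0.000141). It fell 1.43-fold with NaCl in vehicle cells (-0.51, SE 0.083, adjusted p = 0.000347) and 1.35-fold in mifepristone cells (-0.43, SE 0.083, adjusted p = 0.00104).

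Hey1, a related repressor, had 4.28, 4.19 and 4.97 FPKM in mifepristone cells and 0.848, 0.794 and 0.825 FPKM in vehicle cells. Under NaCl the values were 4.63, 4.55 and 3.94 FPKM in mifepristone cells and 1.26, 1.14 and 1.20 FPKM in vehicle cells. The 6 mifepristone libraries overlapped each other and lay above all vehicle libraries. Hey1 rose 3.76-fold with mifepristone without NaCl (log2 fold change 1.91, SE 0.072, limma adjusted p = 2.04e-09) and 2.86-fold with NaCl (1.52, SE 0.072, adjusted p = 1.19e-08), or 5.47-fold and 3.69-fold by voom. With NaCl it rose 1.29-fold in vehicle cells (0.36, SE 0.072, adjusted p = 0.00134) and did not pass in mifepristone cells (-0.03, adjusted p = 0.737).

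Whether the response to mifepristone differed with NaCl was tested by the interaction, the log2 fold change with mifepristone under NaCl minus that without. Of the 10 members 4 passed, 1 higher and 3 lower, where 31.1% of all genes did (13.6% higher, 17.5% lower). They were Jag2 (0.63, SE 0.111, limma adjusted p = 0.00162), Dll1 (-0.79, SE 0.092, adjusted p = 9.93e-05), Lfng (-0.32, SE 0.074, adjusted p = 0.00698) and Hey1 (-0.39, SE 0.102, adjusted p = 0.0135). The Hey1 call was lost with quantile normalization (-0.29, limma adjusted p = 0.0702). The median interaction was -0.21 for the members and -0.01 over all tested genes. Jag1 (-0.08, SE 0.072, adjusted p = 0.404), Hes1 (0.08, SE 0.117, adjusted p = 0.621), Rbpj (-0.10, adjusted p = 0.335), Notch1 (-0.29, adjusted p = 0.275), Notch2 (-0.42, adjusted p = 0.111) and Notch3 (-0.14, adjusted p = 0.503) did not pass. Without mifepristone C the count was 8, with Notch1 (-0.43, adjusted p = 0.0427), Notch2 (-0.59, adjusted p = 0.00406), Notch3 (-0.28, adjusted p = 0.0479) and Rbpj (-0.17, adjusted p = 0.0298) added. The 31.1% above is from all 12 libraries. The share of all genes called without mifepristone C is not given here, so the count of 8 has no background beside it. Notch1 also passed by voom (-0.92, adjusted p = 0.0392).

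Beyond the members, 69 further genes of the pathway were listed by role, and 51 of them passed the expression filter. With mifepristone 15 rose and 16 fell without NaCl (31 of 51, 60.8%), and 13 rose and 22 fell with NaCl (35 of 51). With NaCl 13 rose and 21 fell in vehicle cells (34 of 51), and 7 rose and 25 fell in mifepristone cells (32 of 51). The interaction passed for 2 higher and 18 lower genes. Over all tested genes the shares called were 59.7%, 58.7%, 56.7%, 58.7% and 31.1% in these 5 comparisons, against 60.8%, 68.6%, 66.7%, 62.7% and 39.2% of the list. The median log2 fold changes of the 51 genes, in the order of these comparisons, were 0.04, -0.09, 0.00, -0.16 and -0.10.

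**Figure D3:**
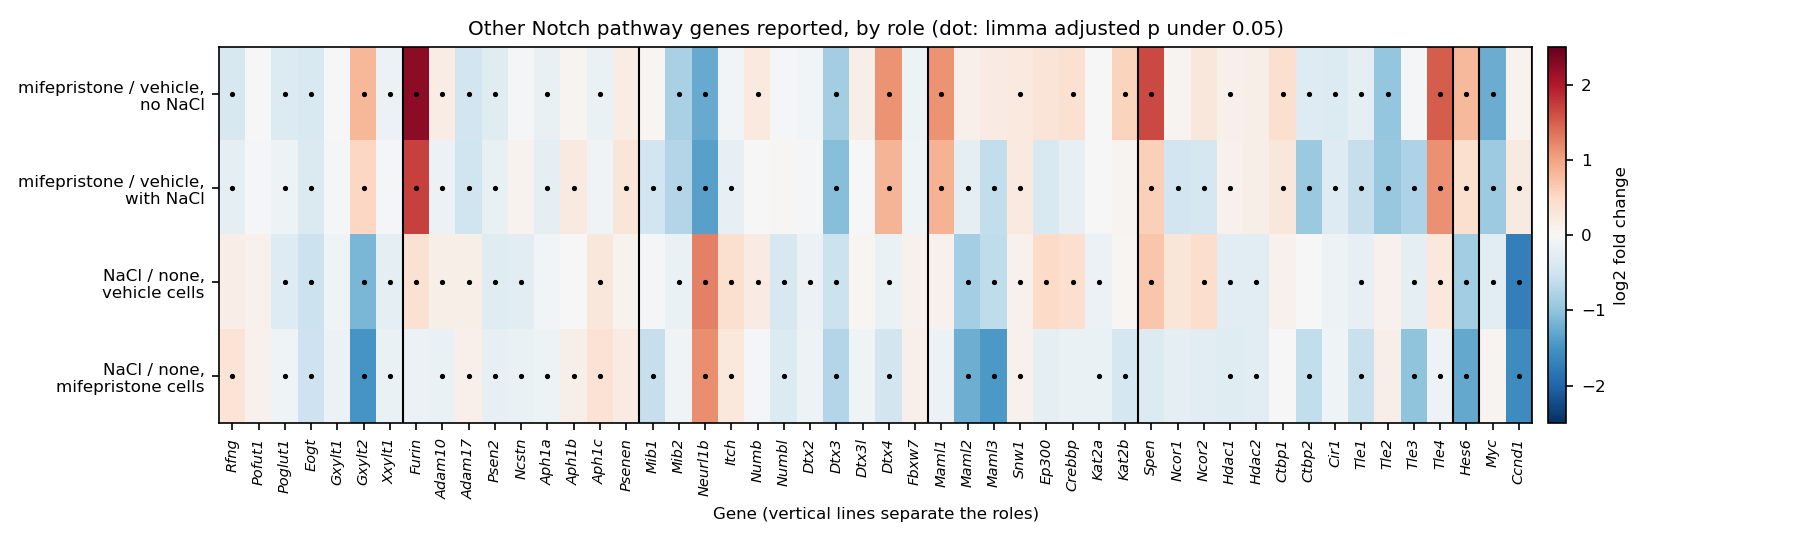
Log2 fold change (colour, log2(FPKM + 0.5) scale) of the other pathway genes reported here that passed the filter (x axis, grouped by role between vertical lines: glycosyltransferases, receptor proteases, ubiquitin ligases and trafficking, co-activators, co-repressors, HES and HEY family, other targets) in the 4 comparisons (y axis). Dots mark genes that passed limma at an adjusted p under 0.05; Furin, Spen and Tle4 are the strongest rises with mifepristone without NaCl, and Ccnd1 is the strongest fall with NaCl in vehicle cells.

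The receptor Notch4, the ligand genes Dll3, Dll4, Dlk1, Dlk2 and Dner, and the fringe gene Mfng were below the filter. Notch4 had 0.33, 0.292 and 0.327 FPKM in mifepristone cells with NaCl, 0.216, 0.21 and 0.203 with mifepristone alone, 0.161, 0.0773 and 0.158 in vehicle cells with NaCl, and 0.0916, 0.0915 and 0.115 with vehicle alone (28 to 132 reads per library). The 4 endothelial markers, none above the filter, summed to 0.479 to 0.59 FPKM, 0.0464 to 0.0837, 0.231 to 0.295 and 0.0272 to 0.0379 in the same 4 groups, and their part in the Notch4 level was not tested. Of the 8 glycosyltransferases 7 passed the filter, and with mifepristone without NaCl 1 rose and 4 fell (5 of 7), against 59.7% of all tested genes called (28.3% higher, 31.5% lower). Rfng, the most abundant fringe gene here, averaged 11.7 ± 0.84 FPKM with mifepristone and 15.6 ± 1.5 with vehicle (SD, n = 3 each), a log2 fold change of -0.40 (limma adjusted p = 0.000991). Gxylt2, which adds xylose to O-glucose on Notch, rose with mifepristone (0.83 without and 0.51 with NaCl) and fell with NaCl (-1.15 in vehicle and -1.47 in mifepristone cells). Poglut1, the O-glucosyltransferase (-0.34), and Eogt (-0.37), an O-GlcNAc transferase, fell with mifepristone without NaCl and in the other 3 comparisons too.

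Of the 10 genes of receptor proteases, 3 rose and 4 fell with mifepristone without NaCl (7 of 10), beside the same 59.7% of all tested genes. Furin, the convertase that cuts the Notch precursor, averaged 29.7 ± 2.4 FPKM with mifepristone and 5.93 ± 0.3 with vehicle (SD, n = 3 each). It rose 4.69-fold without NaCl (log2 fold change 2.23, SE 0.064, limma adjusted p = 2.75e-10) and also with NaCl (1.71). Adam10, the main protease of ligand-dependent cleavage, changed little, with 0.18 without NaCl and -0.14 with NaCl (both passed). Adam17 fell with mifepristone (-0.48 without and -0.50 with NaCl). Among genes of γ-secretase, Psen2 fell (-0.30) with mifepristone without NaCl, and Ncstn fell with NaCl in vehicle cells (-0.27).

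Of 13 genes of ubiquitin ligases and trafficking, 11 passed the filter. Neurl1b, a ligase that drives ligand endocytosis, averaged 3.35 ± 0.16 FPKM with mifepristone and 8.66 ± 0.22 with vehicle (SD, n = 3 each), and 8.09 ± 0.44 and 21.4 ± 0.21 under NaCl. It fell with mifepristone (-1.25 without and -1.35 with NaCl) and rose with NaCl (1.26 in vehicle and 1.16 in mifepristone cells). Mib2, another ligand ligase, fell with mifepristone (-0.82 and -0.73). The Deltex genes moved apart, with Dtx4 higher (1.13 and 0.84) and Dtx3 lower (-0.87 and -1.06). Numbl, a homologue of the Notch inhibitor Numb, fell with NaCl (-0.41 and -0.35), and Itch rose (0.40 and 0.27). Numbl reached 1 FPKM only in libraries without NaCl, so passing the filter already favoured a fall.

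Of 8 co-activator genes, 4 rose and 0 fell with mifepristone without NaCl at an adjusted p under 0.05 by limma (0 also by voom and 0 at an unadjusted p under 0.05). These 4 of 8 (50%) are below the 59.7% called over all tested genes, of which 28.3% were higher and 31.5% lower. Maml1, which bridges RBPJ and acetyltransferases, averaged 14.6 ± 1.4 FPKM with mifepristone and 6.47 ± 0.35 with vehicle (SD, n = 3 each), a log2 fold change of 1.11. Its relatives fell with NaCl, Maml2 by 0.85 in vehicle and 1.22 in mifepristone cells on the log2 scale and Maml3 by 0.64 and 1.45. Maml3 is low, and voom gave -1.03 and -2.84. Maml2 and Maml3 reached 1 FPKM only in libraries without NaCl, so passing the filter already favoured a fall for both. Of 13 co-repressor genes 12 passed the filter, with 4 up and 4 down with mifepristone without NaCl (8 of 12, 66.7%, beside 59.7% of all tested genes). Tle4, a Groucho-type co-repressor, rose (1.52 without and 1.14 with NaCl) and its relative Tle2 fell (-0.97 and -0.94). Spen, a co-repressor partner of RBPJ, rose without NaCl (1.64) and with NaCl (0.60). Its lowest mifepristone library without NaCl was C, at 7.23 FPKM, against 13.0 and 12.2 in A and B. Its lowest library of vehicle alone was A, at 2.27 FPKM, against 3.12 and 3.85 in B and C.

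Among HES and HEY genes other than the members, Hes6 alone passed the filter, and Hes2, Hes3, Hes5, Hes7, Hey2, Heyl and Helt did not. Hes6, known as an inhibitor of HES1 in mice, averaged 30.3 ± 3.7 FPKM with mifepristone and 17.0 ± 1.2 with vehicle, and 12.1 ± 0.74 and 9.11 ± 0.36 under NaCl (SD, n = 3 each). It rose with mifepristone (0.81 and 0.39) and fell with NaCl (-0.86 in vehicle and -1.28 in mifepristone cells). The feedback inhibitor gene Nrarp was below the filter, at 0.161 to 0.677 FPKM (19 to 85 reads per library). It averaged 0.393 FPKM with mifepristone and 0.61 with vehicle, and 0.192 and 0.434 under NaCl. Mifepristone lay below vehicle without overlap in both backgrounds, the direction opposite to that of Hes1 and Hey1. This difference was not tested. Of the general growth genes also reported as Notch targets, Myc fell with mifepristone (-1.24 and -0.90), and Ccnd1 fell with NaCl (-1.71 in vehicle and -1.57 in mifepristone cells). Ccnd1 averaged 0.186 ± 0.027 FPKM with NaCl and 1.75 ± 0.095 without in vehicle cells (SD, n = 3 each). For its falls with NaCl, voom gave -3.20 and -2.59. Ccnd1 reached 1 FPKM only in libraries without NaCl, so passing the filter already favoured a fall.

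Across the 12 libraries the members did not share a pattern. Pearson's r of log2 values ran to -0.985 between Jag1 and Hey1 and was 0.886 between Dll1 and Hes1 and -0.898 between Notch1 and Rbpj. The libraries fall into 4 groups, so these values describe group differences. The 5 tested genes most like Lfng over the 12 libraries were Emp1 (r 0.997), Mex3a (0.993), Evl (0.992), Nck2 (0.992) and Pawr (0.991). The 5 most like Hes1 were Srsf7 (0.997), Cnpy3 (0.992), Mettl9 (0.991), Ifitm2 (0.990) and Mcm6 (0.990). Emp1 averaged 5.01 FPKM in mifepristone cells with NaCl, 17.1 with mifepristone alone, 7.96 in vehicle cells with NaCl and 19.0 with vehicle alone.

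**Figure D4:**
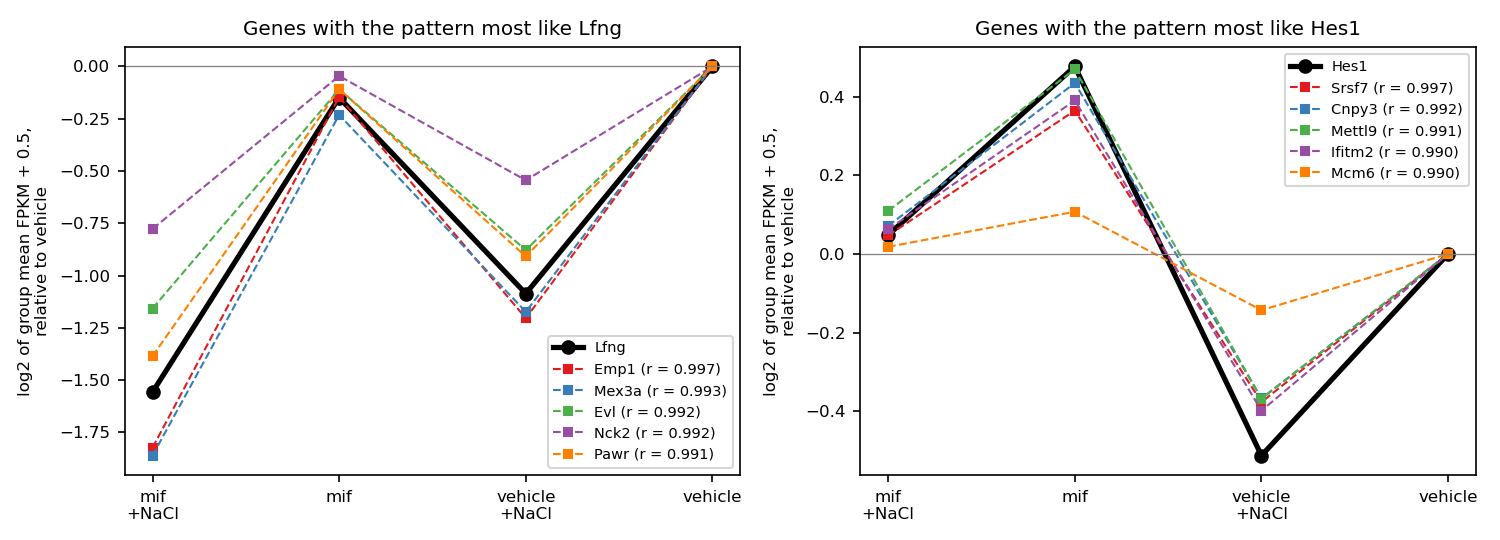
Group means (y axis, log2 of mean FPKM + 0.5 relative to vehicle; x axis, the 4 groups) of Lfng and of Hes1 (black) and of the 5 genes most like each (colours, r over 12 libraries in the legend). Each curve of the Lfng panel is lowest in mifepristone cells with NaCl and highest with vehicle, and each of the Hes1 panel is highest with mifepristone alone and lowest in vehicle cells with NaCl.

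The authors' deposited tables mark genes with a nearby ChIP peak, and 6 of the 10 members carried the mark (Notch1, Notch2, Jag1, Hes1, Hey1 and Rbpj), as did 28.4% of the 14044 tested genes. In the authors' deposited table of mutant against control cells Jag1 had a log2 fold change of -2.22 (adjusted p 7.46e-72), Hey1 of 2.41 (2.23e-31) and Dll1 of 1.38 (0.00294). The other 7 members had an adjusted p of 1 there, Notch1 among them at -1.25. No gene of the authors' deposited table had an adjusted p below 1 at a change smaller than 1.07 on the log2 scale. For NaCl in control cells the authors' deposited table gave Lfng a log2 fold change of -1.36 (adjusted p 1.03e-34), and in mutant cells -1.91 (4.64e-53). Their interaction had an adjusted p of 1 for all 10 members. No gene had an adjusted p below 1 for it at a size smaller than 1.21 on the log2 scale. For the members whose interaction passed here, the authors' values were -0.91 (Dll1), 0.81 (Jag2), -0.58 (Hey1) and -0.56 (Lfng). All of these are smaller in size than that limit, so the authors' adjusted p cannot decide on these interactions. By GENCODE M21, exons of Notch1 share 1068 bases with 0610009E02Rik on the other strand (0.066 to 0.282 FPKM) and those of Dll1 share 867 bases with A930024N18Rik (0.0722 to 0.172 FPKM), and reads of such pairs may not be separable.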

How the data were processed

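Poly(A) RNA was sequenced from 12 libraries, 3 in each of 4 groups, and every value column was matched to a sample by name. The authors deposited FPKM values per gene, which are reads scaled by gene length and library depth. The authors also deposited, per the file headers, a mean of normalized counts (a signal over all libraries), log2 fold changes and adjusted p-values of their own comparisons, and a mark for a nearby ChIP peak. Trimmomatic 0.32, STAR 2.4.2a, SAMtools 1.0, DESeq2 1.12.3 and the build GRCm38/mm10 are listed, per the submitters' processing notes, without the step each served. Counting program, annotation and strand setting: not given in the sources used here. The columns named for the mutant were taken as mifepristone libraries because mifepristone induces that protein.

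From the FPKM, limma 3.58.1 (R 4.3.3; trended, robust) was fitted to log2(FPKM + 0.5) with 4 group means over all 12 libraries (8 residual degrees of freedom), for genes at 1 FPKM in at least 3 libraries. P-values were adjusted by Benjamini-Hochberg over 14044 genes and called under 0.05. All values under 1000 reads were whole multiples of 1 read within 0.05, so reads were recovered and tested with voom as an alternative. Other alternatives were pseudocounts of 0.1 and 1, a mean FPKM of at least 5, other scalings, library weights, a replicate block, a threshold of 0.01 and leaving out libraries. Scripts (Python 3.11.15) were tested on simulated data. Members and lists were chosen with earlier results of these data known. Named were the 10 members and, per role, up to 4 pathway genes with the smallest adjusted p with mifepristone without NaCl, up to 4 with NaCl in vehicle cells, and genes called in all 4 comparisons. Pathway genes below the filter were named outside that rule. Of the 51 tested pathway genes, 1 is in the counts and is shown neither in the text nor in the plot by role.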

Additional observations from a re-analysis of the deposited data

Results flagged for a closer look

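For 4 of the 10 genes the response to mifepristone differed between cells with and without NaCl by the test of the difference itself (limma, interaction, log2 scale). The difference, the effect with NaCl minus that without, was 0.63 for Jag2 (adjusted p = 0.00162), -0.79 for Dll1 (adjusted p = 9.93e-05), -0.32 for Lfng (adjusted p = 0.00698) and -0.39 for Hey1 (adjusted p = 0.0135). The Hey1 difference missed the threshold with quantile normalization (-0.29, limma adjusted p = 0.0702). Over all tested genes 31.1% passed the same test.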

How the results depend on the processing

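Over single-library omissions, 579 of 600 fold changes of the 10 genes kept their direction and call, and over the other settings 536 of 565 did. Part of this was fixed in advance. Leaving out a library that is in neither group of a comparison cannot change its fold change, only the spread and the call. The replicate block and the threshold of 0.01 also left the fold changes as they were. Both totals therefore overstate how far the directions were put to the test. Requiring a mean FPKM of at least 5 left 3 members, of which 3, 2, 2, 2 and 0 were called (mifepristone without and with NaCl, NaCl in vehicle and in mifepristone cells, interaction; limma), against 9, 8, 7, 5 and 4, and it left 34 pathway genes, with 21 called for NaCl in vehicle and 20 in mifepristone cells. At an adjusted p under 0.01 the pathway interaction count was 11, against 20. Leaving out each library in turn gave 8 to 10, 8 to 8, 7 to 8, 5 to 7 and 4 to 8 members, and 29 to 35, 26 to 37, 26 to 37, 27 to 40 and 15 to 26 pathway genes. The 8 interaction calls came without mifepristone C. The shares of all tested genes called under these settings are not given here, so none of these counts can be set against a background.

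Directions turned only for values that passed no test, and the cause was not tested. For Notch3 with NaCl in mifepristone cells the log2 fold change was -0.0068 with quantile normalization, -0.0505 with library weights and -0.0937 without vehicle A and mifepristone C, and -0.0937 to 0.115 over single omissions. With mifepristone under NaCl it was -0.0169 to 0.091 for Notch3 over single omissions. For Jag1 with NaCl in vehicle cells it was -0.0034 with quantile normalization, -0.00297 without both libraries and -0.0154 to 0.0195 over single omissions. For Hey1 with NaCl in mifepristone cells it was 0.0145 with median-ratio scaling, 0.0275 with weights, 0.00752 by voom, 0.0391 without both libraries and -0.073 to 0.0391 over single omissions. The Hey1 interaction missed the threshold with quantile normalization (limma adjusted p = 0.0702).

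With the replicate letter as a block, 9, 8, 7, 5 and 4 members and 31, 31, 31, 31 and 16 pathway genes were called. For the block too, the share of all tested genes called is not given here. The letters are not shown to pair the samples: over 18 same-letter pairs the correlation of deviations was -0.5 to 0.288, and 6 exceeded 0.1.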

Other observations

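Of the 9 listed principal cell markers 2 were above the filter, and of the 8 intercalated cell markers likewise 2. Of these 4, 3 rose with mifepristone in both backgrounds and Car2 fell. Over all tested genes 28.3% rose without and 26.8% with NaCl, and 31.5% and 31.9% fell. Scnn1a and Slc26a4 reached 1 FPKM in mifepristone libraries only, so passing the filter already favoured a rise for both. Hsd11b2, which protects the mineralocorticoid receptor from glucocorticoids, averaged 9.54 ± 0.79 FPKM in mifepristone cells and 0.397 ± 0.025 in vehicle cells under NaCl, and 7.9 ± 0.64 and 1.56 ± 0.043 without (SD, n = 3 each). Its log2 fold change with mifepristone was 3.48 with and 2.03 without NaCl (limma adjusted p = 1.46e-11 and 7.52e-10), or 4.60 and 2.35 by voom. Scnn1a, a subunit of the epithelial sodium channel, averaged 1.11 ± 0.12 FPKM in mifepristone cells and 0.405 ± 0.061 in vehicle cells under NaCl, and 2.08 ± 0.15 and 0.578 ± 0.062 without (SD, n = 3 each). It rose by 0.83 with and 1.26 without NaCl (limma adjusted p = 4.61e-06 and 1.48e-07), or 1.49 and 1.85 by voom. Slc26a4, the anion exchanger pendrin, averaged 1.36 ± 0.065 FPKM in mifepristone cells and 0.0263 ± 0.0088 in vehicle cells under NaCl, and 0.467 ± 0.035 and 0.0529 ± 0.019 without (SD, n = 3 each). It rose by 1.82 with and 0.81 without NaCl (limma adjusted p = 1.02e-09 and 8.95e-07), or 5.58 and 3.12 by voom, from as few as 3 reads in a library. Car2, a carbonic anhydrase, averaged 9.66 ± 0.65 FPKM in mifepristone cells and 14.6 ± 0.72 in vehicle cells under NaCl, and 2.15 ± 0.12 and 9.58 ± 0.54 without (SD, n = 3 each). Its fall with mifepristone was -0.57 with and -1.92 without NaCl on the log2 scale (limma adjusted p = 1.06e-05 and 5.45e-10).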
